A study of Homo sapiens with 6 samples.

Results

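The long-chain acyl-CoA synthetase genes ACSL1, ACSL3, ACSL4 and ACSL5 were followed through RNA-seq of HCT116 cells, a human cell line from a colorectal carcinoma. They were taken by gene symbol from 6 tables of 19942 symbols each, and all 4 were found. The family was chosen by its resistant over parental ratios, which differ in direction between members, so every such value of a member describes that choice and carries no test. The 6 libraries are 5-fluorouracil resistant cells with EHMT2 siRNA, with control siRNA and untransfected, and parental cells (wild-type in the labels) with EHMT2 siRNA, with control siRNA and untransfected. 5-fluorouracil is a pyrimidine analogue used against colorectal cancer, and EHMT2 encodes the histone H3K9 methyltransferase G9a. Each group holds 1 library, so differences between single libraries have no replicate check. The study's design text speaks of biological replicates, the titles number each library as replicate 1, and further replicates were not analysed here. The sources used here do not give how the resistant cells were derived, whether they are 1 clone or whether drug was present at harvest.

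ACSL enzymes join long-chain fatty acids to coenzyme A, the step that commits a fatty acid to membrane and storage lipid synthesis, to oxidation or to protein acylation. The isoforms differ in location and substrate. ACSL3 sits in the endoplasmic reticulum and on nascent lipid droplets. ACSL4 prefers arachidonic acid and other polyunsaturated fatty acids, and it is known for loading membranes with lipids that peroxidise in ferroptosis, an iron-dependent form of cell death. ACSL5 is the isoform abundant in intestinal epithelium, and ACSL1 is known from liver, fat and heart, where it feeds both triglyceride synthesis and oxidation. ACSL6, the remaining human family member, is mainly a brain gene and was listed at 0 in all 6 libraries.

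The promoter windows examined differed in base composition between members. RefSeq promoter windows on build GRCh38.p14, from 250 bases before to 50 after a transcription start, were available for all 4 members. ACSL3 and ACSL5, which had opposite directions between the lines, and ACSL4, the ferroptosis gene, are printed 5′ to 3′ on the strand of the gene, with each CpG dinucleotide in capitals.
ACSL3, chr2:222860786-222861085, plus strand: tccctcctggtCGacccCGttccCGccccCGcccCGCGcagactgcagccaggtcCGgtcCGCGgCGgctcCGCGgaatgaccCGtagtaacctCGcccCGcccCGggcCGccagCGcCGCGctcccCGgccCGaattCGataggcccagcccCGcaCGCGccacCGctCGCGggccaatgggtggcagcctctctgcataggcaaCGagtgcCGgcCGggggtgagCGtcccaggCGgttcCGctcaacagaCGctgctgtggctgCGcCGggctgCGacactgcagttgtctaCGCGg
ACSL4, chrX:109733208-109733507, minus strand: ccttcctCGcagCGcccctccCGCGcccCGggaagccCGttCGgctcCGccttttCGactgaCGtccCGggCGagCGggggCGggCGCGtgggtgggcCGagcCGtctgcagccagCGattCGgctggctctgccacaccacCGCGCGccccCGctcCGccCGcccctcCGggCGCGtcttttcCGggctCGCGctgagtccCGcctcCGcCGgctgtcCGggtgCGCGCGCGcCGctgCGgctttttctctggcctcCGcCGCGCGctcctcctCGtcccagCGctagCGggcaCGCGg
ACSL5, chr10:112375018-112375317, plus strand: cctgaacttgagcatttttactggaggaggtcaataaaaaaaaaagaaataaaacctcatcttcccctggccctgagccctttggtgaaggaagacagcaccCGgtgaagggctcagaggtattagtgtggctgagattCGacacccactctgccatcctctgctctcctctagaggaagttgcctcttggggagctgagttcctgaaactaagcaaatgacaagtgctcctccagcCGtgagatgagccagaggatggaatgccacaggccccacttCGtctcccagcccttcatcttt
The ACSL3 window held 41 CpG dinucleotides and the ACSL4 window 51, more than 93.3% and 99.0% of the 35116 windows in the table, whose median was 14. The first start of ACSL1 (chr4:184825919-184826218, minus strand) held 47. ACSL5 held 4 at the start printed here and 5 at its other listed start (chr10:112375955-112376254), more than 24.5% and 29.6% of all windows. ACSL1 also has 4 further listed starts, and those windows held 4 to 7.

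Motif searches gave the following matches. The GC box GGGCGG, searched on both strands, occurred 6 times in the first ACSL1 window, 3 times in ACSL3, 3 times in ACSL4 and in neither ACSL5 window, while 45.0% of all windows hold it. A CCAAT box was found in the ACSL3 window, 75 bases before the start, and is present in 34.6% of all windows. The pattern TCANCNCAC, modelled on the sterol regulatory element bound by SREBP proteins, had no match in the ACSL3 or ACSL4 window. It matched once at the first ACSL5 start and once at an internal ACSL1 start, and 3.42% of all windows hold it. The core letters of nuclear receptor sites, AGGTCA, matched once in the first ACSL5 window, and 13.8% of all windows hold them. The longer PPAR element, which contains that core, matched in no member, and neither did the E-box CACGTG, which 7.26% of windows hold. A TATAAA match was found at 1 internal ACSL1 start and in no other member window, against 11.5% of all windows. These are letter matches and were not tied to any binding data.

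By position, ACSL1 (ENSG00000151726) lies on chromosome 4, 184755595 to 184826818, and ACSL3 (ENSG00000123983) on chromosome 2, 222860934 to 222944639, in GENCODE 29 on build GRCh38. ACSL4 (ENSG00000068366) lies on chromosome X, 109624244 to 109733403, and ACSL5 (ENSG00000197142) on chromosome 10, 112374018 to 112428380. ACSL5 shares 8.64% of its exonic bases with the opposite-strand genes ZDHHC6 and AL157786.1, and the shares are 1.41% for ACSL3, 1.22% for ACSL4 and 0% for ACSL1. The ACSL3 overlap is also with an opposite-strand gene, whereas ACSL4 overlaps KCNE5 on its own strand. The sources used here do not say whether reads were counted by strand. Without that, reads from the opposite-strand overlaps cannot be told apart, and counting by strand would not separate ACSL4 from KCNE5.

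Levels are given as FPKM, fragment counts scaled to transcript length and to the size of the library, which allows genes of different length to be compared. Each table summed to between 360730 and 446165 FPKM. The lowest value above 0 lay between 0.172 and 0.264 FPKM, depending on the library, so a listed 0 need not mean absence. Read depth is unknown, so no counting interval can be given. Of 11 colorectal epithelium markers, 6 were at 1 FPKM or more in every library, among them EPCAM, CDH1 and the keratin genes KRT8, KRT18 and KRT19, while VIL1, CDX1, GPA33 and LGALS4 were at 0 throughout. Summed, the list lay between 2181 and 2563 FPKM in resistant and between 1643 and 2369 in parental cells. The 3 endothelial markers, the haematopoietic markers PTPRC, CD3E and CD79A and the fibroblast markers COL1A2, COL3A1, DCN and LUM were at 0 in every library, whereas CD14 was at 0 to 0.847 and COL1A1 at 3.35 to 9.79. The targeted gene, EHMT2, was at 3.80 FPKM after EHMT2 siRNA against 19.5 after control siRNA in resistant cells, and at 8.58 against 31.7 in parental cells. Untransfected cells had 27.3 in the resistant and 19.8 in the parental line. In bulk RNA, fewer cells expressing a gene and less RNA per cell cannot be told apart.

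ACSL3 was higher in every resistant library than in every parental library. Its level was 42.7 FPKM with EHMT2 siRNA, 46.0 with control siRNA and 54.6 untransfected in resistant cells, against 27.4, 26.9 and 23.7 in parental cells. The share of all genes whose libraries separate in this way was not counted, so nothing is read from the separation. The log2 ratio of FPKM with 1 added, resistant over parental, was 0.62 with EHMT2 siRNA, 0.75 with control siRNA and 1.17 untransfected. These ratios lay above those of 94.8%, 96.4% and 97.8% of the genes with 1 FPKM or more in the pair.

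ACSL5 had the widest range of the family, 22.4-fold between its lowest and highest library. It was 21.4 FPKM with EHMT2 siRNA, 16.3 with control siRNA and 3.65 untransfected in resistant cells, against 23.8, 26.2 and 81.7 in parental cells. Every resistant value lay below every parental value, but the gap differed between the siRNA states. The share of all genes that separate in this way was not counted, so nothing is read from the separation. In untransfected cells ACSL5 was 22.4-fold lower in resistant cells, with a log2 ratio of −4.15, a value above only 0.0511% of genes. With control siRNA it was 1.61-fold lower (log2 ratio −0.66, above 3.99% of genes), and with EHMT2 siRNA 1.11-fold lower (−0.15, above 39.8% of genes). Whether the line difference varies with treatment was not tested, because each cell of the design is 1 library.

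ACSL4 had no single direction between the lines. Its level was 20.1 FPKM with EHMT2 siRNA, 31.2 with control siRNA and 13.5 untransfected in resistant cells, against 15.9, 17.4 and 15.8 in parental cells. The 2 sets overlapped, since the resistant untransfected library had the lowest value of all and the other 2 resistant libraries the highest. The log2 ratios were 0.32, 0.81 and −0.22 in the same order of treatments, and the last was 0.01 once all tables were rescaled to the same sum. The parental values spanned 15.8 to 17.4 FPKM and the resistant values 13.5 to 31.2.

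ACSL1 was the least abundant detected member, and its lines overlapped too. It was 6.49 FPKM with EHMT2 siRNA, 3.60 with control siRNA and 3.12 untransfected in resistant cells, against 5.20, 4.33 and 3.62 in parental cells. Its log2 ratios, resistant over parental, were 0.27, −0.21 and −0.17, the last being 0.02 after rescaling to the same sum. In both lines the library with EHMT2 siRNA was the highest and the untransfected library the lowest.

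**Figure D1:**
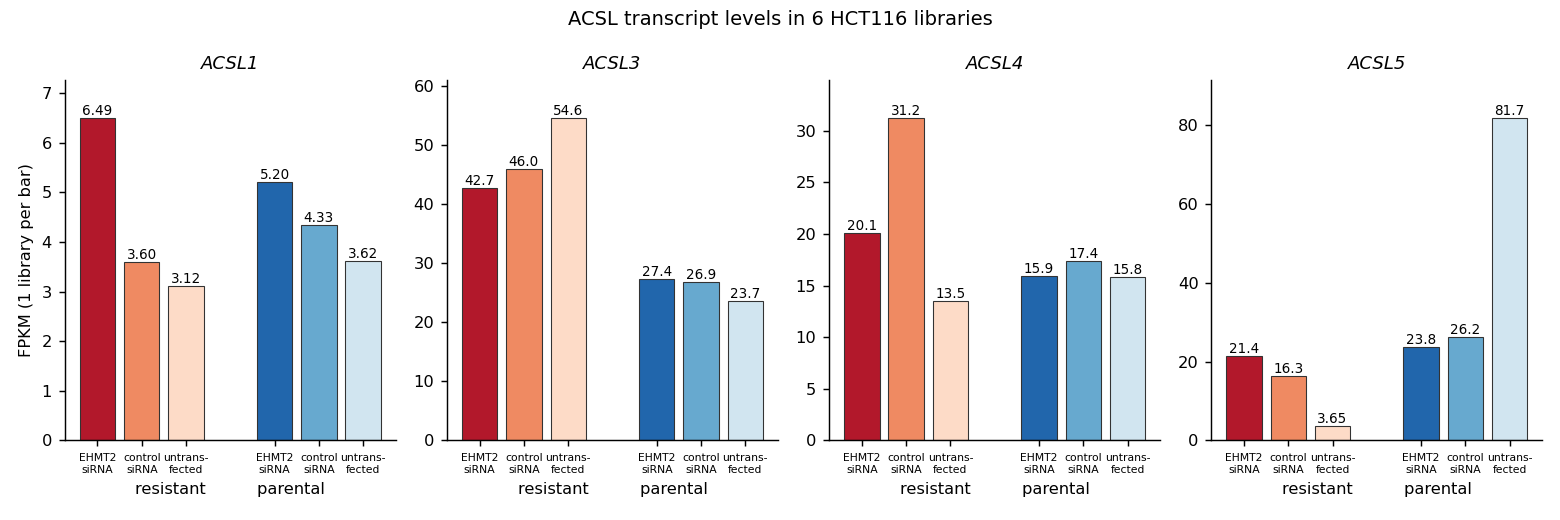
FPKM of each ACSL gene (vertical axis, its own scale per panel) in the 6 libraries, 1 library per bar, with resistant cells left (red shades) and parental cells right (blue shades). ACSL3 bars stand between 42.7 and 54.6 in resistant and between 23.7 and 27.4 in parental cells, and the tallest ACSL5 bar, 81.7, is the untransfected parental library.

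Folds given for single genes are ratios of FPKM, whereas counts of genes 2-fold apart use FPKM with 1 added. At the 2-fold size, ACSL3 was higher and ACSL5 lower in untransfected resistant cells. Of 11731 genes in that pair, 7.40% were at least 2-fold apart, 3.48% higher and 3.92% lower. With control siRNA 0 of the 4 members were 2-fold apart, where 2.56% of genes were, 1.60% higher and 0.960% lower. With EHMT2 siRNA it was 0 of 4, where 3.09% of genes were, 1.54% higher and 1.55% lower. Since this contrast chose the family, nothing is read from these counts.

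The make-up of the ACSL message pool differed accordingly. ACSL3 contributed 73.0% of the summed ACSL FPKM in untransfected resistant cells, against 19.0% in untransfected parental cells. ACSL5 contributed 4.88% and 65.5% in the same libraries, so the leading isoform was ACSL3 in the first and ACSL5 in the second. With control siRNA the ACSL3 share was 47.4% in resistant and 36.0% in parental cells, and the ACSL5 share 16.8% and 35.0%. With EHMT2 siRNA the shares were 47.1% and 37.9% for ACSL3, and 23.6% and 32.9% for ACSL5. The level of ACSL5 was 0.0669 times that of ACSL3 in untransfected resistant cells and 3.45 times in untransfected parental cells, while with control siRNA it was 0.354 and 0.974 times. The summed ACSL level itself was 90.7, 97.0 and 74.8 FPKM in resistant cells with EHMT2 siRNA, with control siRNA and untransfected, against 72.3, 74.9 and 125 in parental cells.

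**Figure D2:**
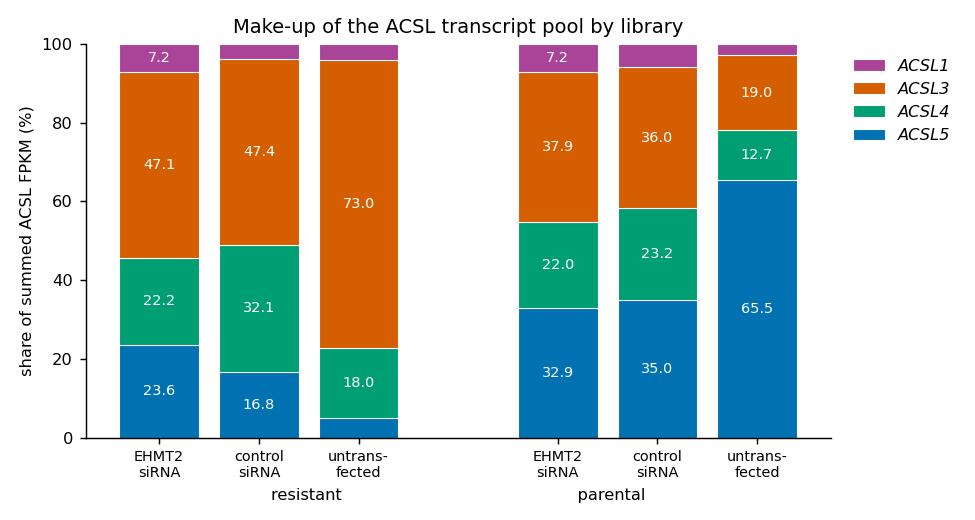
Share of the summed ACSL FPKM (vertical axis, percent) held by ACSL1, ACSL3, ACSL4 and ACSL5 in each of the 6 libraries, resistant left and parental right. ACSL3 fills 73.0% of the untransfected resistant bar, and ACSL5 fills 65.5% of the untransfected parental bar.

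Knockdown of EHMT2 was compared with control siRNA within each line, a contrast that was not used to choose the family. In resistant cells the log2 ratio of EHMT2 siRNA over control siRNA was 0.70 for ACSL1, −0.10 for ACSL3, −0.61 for ACSL4 and 0.37 for ACSL5. In parental cells it was 0.22, 0.03, −0.12 and −0.14. ACSL1 was thus higher and ACSL4 lower with EHMT2 siRNA in each line, with the larger differences in resistant cells, while ACSL3 and ACSL5 had opposite signs in the lines. The parental ACSL3 ratio was −0.07 with median centring and −0.02 with quantile normalisation, so its sign rests on the scaling. After rescaling to the same sum, the parental ratios of ACSL4 and ACSL5 were −0.005 and −0.02. The share of all genes whose signs agree between the lines was not counted. At the 2-fold size 0 of 4 members were apart in resistant cells, where 9.26% of genes were, 5.22% higher and 4.04% lower. In parental cells it was 0 of 4 as well, where 11.0% of genes were, 7.48% higher and 3.51% lower. The 4 members had their EHMT2 siRNA ratios between the 12.7 and 88.2 percentiles of all genes in resistant cells, and between the 34.9 and 58.7 percentiles in parental cells.

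An additive limma model of line and treatment over all 6 libraries, with the interaction as the error, called no member. ACSL1 had an estimate of 0.46 (SE 0.22, adjusted p = 0.251 with Benjamini-Hochberg adjustment over all genes), and ACSL4 of −0.36 (SE 0.27, adjusted p = 0.432, limma). ACSL3 had −0.04 (SE 0.20, adjusted p = 0.920, limma) and ACSL5 0.12 (SE 0.95, adjusted p = 0.946, limma). This fit called 0 of 11521 genes (0%) for EHMT2 siRNA, with 3060 at an unadjusted p under 0.05. Its lowest adjusted p was 0.0529 (limma), so the targeted gene EHMT2 was not called either. A count of 0 from this fit, here and for the lists below, is therefore not read as absence of change. Restricted to the 4 siRNA libraries, the same limma model called 42.5% of genes, 23.8% higher and 18.7% lower, and again 0 of the 4 members. There ACSL1 had the same estimate (SE 0.17, adjusted p = 0.0667, limma), as had ACSL4 (SE 0.15, adjusted p = 0.0872), ACSL3 (SE 0.11, adjusted p = 0.802) and ACSL5 (SE 0.15, adjusted p = 0.550). Over all alternatives run, the adjusted p from limma lay between 0.0667 and 0.841 for ACSL1 and between 0.0872 and 0.995 for ACSL4. Without the resistant control siRNA library the ACSL4 estimate was 0.014. These p-values measure only the spread among these libraries.

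The untransfected libraries differed from the siRNA libraries in ACSL5 and ACSL4. In resistant cells ACSL5 was 16.3 FPKM with control siRNA and 3.65 untransfected, 4.46-fold higher with a log2 ratio of 1.89. In parental cells it was 26.2 with control siRNA and 81.7 untransfected, 3.12-fold lower with a log2 ratio of −1.60. Both siRNA states of both lines thus lay between the 2 untransfected libraries. ACSL4 was 2.32-fold higher with control siRNA in resistant cells (log2 ratio 1.15), and had a ratio of 0.13 in parental cells. For ACSL1 the resistant ratio was 0.16 and the parental ratio 0.21, and for ACSL3 they were −0.24 and 0.18.

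In resistant cells 2 of the 4 members were at least 2-fold higher with control siRNA, where 4.31% of genes were higher, 3.87% lower and 8.18% apart in either direction. In parental cells 1 of 4 was lower, where 2.08% of genes were lower, 0.954% higher and 3.03% apart. The 6-library limma fit, which averages the lines, gave 0.64 for ACSL4 (SE 0.27, adjusted p = 0.708) and 0.14 for ACSL5 (SE 0.95, adjusted p = 0.986), and called 5 of 11521 genes (0.0434%; 0.0347% higher and 0.00868% lower), and 0 of the 4 members. Without the untransfected parental library the limma estimate of ACSL5 was 2.02, and without the untransfected resistant library −1.73. ACSL4 had 1.03 without the untransfected parental library. Each of these fits sets the 1 untransfected library of a single line against a control siRNA level fitted from the 4 siRNA libraries. The error of each fit comes from the siRNA libraries, so the lone library is assumed to vary as they do. The untransfected values also enter the line ratios that chose the family. The large ACSL5 ratios here are therefore not independent of that choice, and no p-value is given for these fits. In the alternatives that kept all 6 libraries, the limma adjusted p was at least 0.678 for ACSL4 and at least 0.974 for ACSL5. The untransfected tables list their genes in another order than the siRNA tables, and the sources used here do not say whether all libraries were prepared together. Transfection and such a difference in preparation cannot be told apart. The control siRNA libraries serve in this comparison and in that of EHMT2 siRNA, so their values are shared.

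**Figure D3:**
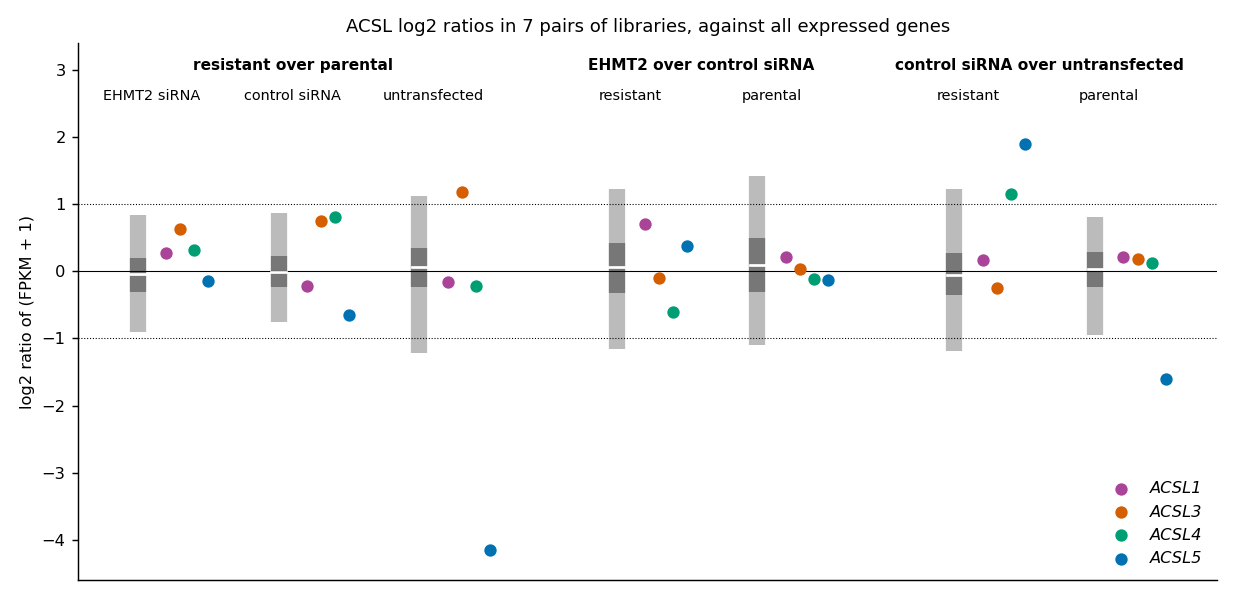
Log2 ratios of FPKM with 1 added (vertical axis) in 7 pairs of libraries, as coloured points for the 4 ACSL genes beside grey bars for all genes at 1 FPKM or more in the pair (light, central 95%; dark, central 50%; white line, median). Dotted lines mark 2-fold. ACSL5 lies outside the light bar in the untransfected line pair (−4.15) and in both control siRNA over untransfected pairs (1.89 and −1.60). ACSL3 lies just outside it in the untransfected line pair (1.17).

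Genes with the most similar profiles were sought among 9379 genes reaching 5 FPKM in some library, by the root mean square distance between log2 profiles centred on their own means over the 6 libraries. For ACSL5 the nearest was PRKACB, which encodes a protein kinase A subunit, at a distance of 0.30, where ACSL5 itself varies with an SD of 1.22. PRKACB was 10.1, 8.69 and 3.34 FPKM in resistant cells with EHMT2 siRNA, with control siRNA and untransfected, against 15.4, 20.1 and 54.1 in parental cells. Its libraries stand in the same order as those of ACSL5. OGDHL, NEO1, PCDH7 and SAMD13 followed at 0.51 to 0.57. PCDH7, a protocadherin, was 33.1 in untransfected parental cells and listed at 0 in untransfected resistant cells.

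For ACSL3 the nearest profiles included those of MT1F, a metallothionein, at 0.10, NIPSNAP3A, PRSS22 and ARHGAP21. MT1F was 5.22, 5.19 and 6.04 FPKM in resistant cells with EHMT2 siRNA, with control siRNA and untransfected, against 2.82, 2.49 and 2.81 in parental cells. For ACSL4 the nearest profiles were RGMB, GNE, COG6, SEC14L2 and ZFAND5, at 0.09 to 0.14. RGMB, a co-receptor of bone morphogenetic proteins, was 4.93, 7.49 and 2.85 in resistant and 3.91, 4.40 and 4.33 in parental cells. For ACSL1 they were RAB18, PRPF18, XPA, GRB2 and SOX12, at 0.04 to 0.06, and RAB18, a small GTPase of lipid droplets, was 23.7, 15.2 and 12.7 in resistant and 19.3, 17.2 and 15.4 in parental cells. Such distances rest on 6 libraries, and ACSL1 varies by an SD of only 0.29, so many genes come close to it. Among the members, ACSL3 and ACSL5 were furthest apart, at 1.61, and ACSL1 and ACSL4 nearest, at 0.45.

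**Figure D4:**
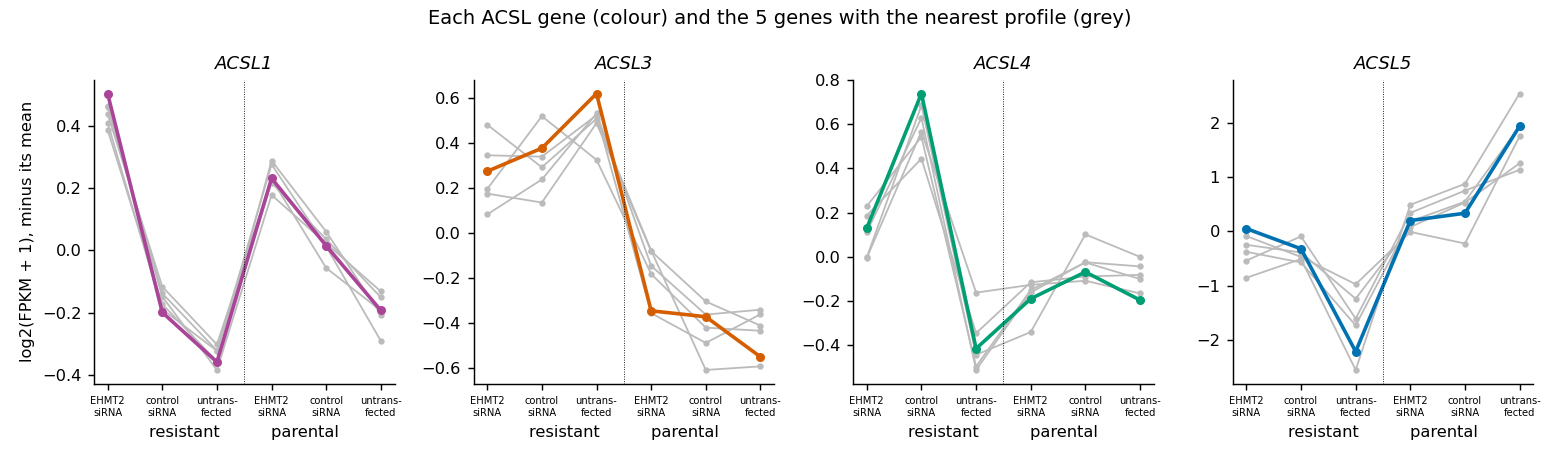
Log2(FPKM + 1) minus its mean over the 6 libraries (vertical axis) for each ACSL gene (colour) and the 5 genes nearest to it (grey), resistant libraries left of the dotted line and parental libraries right. The ACSL5 profile runs lowest in the untransfected resistant and highest in the untransfected parental library, and PRKACB follows it at a distance of 0.30.

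The genomic neighbours of ACSL5 are given beside its own line ratios of −0.15 with EHMT2 siRNA, −0.66 with control siRNA and −4.15 untransfected. Those ratios chose the family, so nothing is read from the comparison. ZDHHC6, a palmitoyltransferase gene whose end overlaps ACSL5 on the other strand, had log2 ratios, resistant over parental, of −0.23 with EHMT2 siRNA, −0.50 with control siRNA and −0.48 untransfected. VTI1A, the next expressed gene on that side, had −0.32, −0.17 and −0.72. GPAM, a glycerol-3-phosphate acyltransferase and the nearest expressed gene on the other side, had −0.50, −0.44 and 0.01. Beside ACSL3, FARSB had ratios of −0.03, 0.07 and −0.04 and SCG2 of 0.93, 0.77 and −0.07.

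Other enzymes that make acyl-CoA were measured beside the family. Of 21 listed genes 11 were at 1 FPKM or more in enough libraries (3) to be tested. Between the lines, ACSS2, which activates acetate, was 31.4, 29.2 and 24.9 FPKM in resistant cells with EHMT2 siRNA, with control siRNA and untransfected, against 18.3, 12.7 and 16.7 in parental cells. In the 4-library limma fit it rose in resistant cells by 0.95 (SE 0.14, adjusted p = 0.0176), the 1 of 11 called, where 8.96% of genes were called for line, 4.49% higher and 4.47% lower. The 6-library limma fit gave 0.82 (SE 0.17, adjusted p = 0.578) and called 0 of 11521 genes for line (0%), with 603 at an unadjusted p under 0.05. ACSM3, a medium-chain synthetase, was 0.862, 3.02 and 1.89 in resistant and 1.59, 3.73 and 5.60 in parental cells. With EHMT2 siRNA, 2 of the 11 rose and 4 fell in the 4-library limma fit, in which 42.5% of all genes were called, 23.8% higher and 18.7% lower. The counts of the lists that follow are read against these shares, and in each of these lists the 6-library limma fit called 0 genes for EHMT2 siRNA. AACS, which activates acetoacetate, had an estimate of 0.78 (SE 0.14, adjusted p = 0.0064 in the 4-library limma fit and 0.0873 in the 6-library fit). ACSM3 had −0.99 and SLC27A1, a fatty acid transport protein with synthetase activity, −0.79. The list's median was −0.39, where that of all genes was 0.06.

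Proteins that bind fatty acids and their CoA esters were listed next. DBI, the acyl-CoA binding protein, was 347, 180 and 222 FPKM in resistant cells with EHMT2 siRNA, with control siRNA and untransfected, against 182, 119 and 111 in parental cells. It rose with EHMT2 siRNA in the 4-library limma fit (0.78, SE 0.13, adjusted p = 0.0051; 0.107 in the 6-library fit), and FABP5, a fatty acid binding protein, fell (−0.60, adjusted p = 0.0072; 0.303 in the 6-library limma fit). In the list of acyl-CoA and fatty acid binding, 1 of 8 rose and 2 fell, 3 called in all, which is near the 42.5% of all genes.

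Fatty acid oxidation takes up acyl-CoA in mitochondria and peroxisomes. Of 25 tested genes 10 rose and 1 fell with EHMT2 siRNA in the 4-library limma fit, where 23.8% of all genes rose and 18.7% fell. The total called was thus near the 42.5% of all genes, and the list's median was 0.38, against 0.06 for all genes. The 6-library limma fit called 0 of the 25. CPT1A, which passes acyl groups to carnitine at the mitochondrial surface, reached 22.6 FPKM after EHMT2 siRNA against 8.35 after control siRNA in resistant cells, and 37.6 against 15.0 in parental cells. Its estimate was 1.30 (SE 0.12, adjusted p = 0.000968 in the 4-library limma fit and 0.0529 in the 6-library fit). SLC25A20, the acylcarnitine carrier, had 1.27 (adjusted p = 0.00128 and 0.0529 in the same limma fits), whereas ACAA2, a mitochondrial thiolase, had −0.83. Between the lines CPT1A had log2 ratios, resistant over parental, of −0.71 with EHMT2 siRNA, −0.78 with control siRNA and −0.57 untransfected. The medians of the list were 0.11, −0.11 and −0.26 in the same order. CPT1A had the lowest mean line ratio of the list, which is a rule by which genes were named, so nothing is read from its direction.

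Fatty acid synthesis supplies the substrate. In that list 3 of 22 rose and 5 fell with EHMT2 siRNA in the 4-library limma fit, with a median of −0.10, where 42.5% of all genes were called. SCD, the stearoyl-CoA desaturase, had −1.18 (SE 0.13, adjusted p = 0.0014 in the 4-library limma fit and 0.0635 in the 6-library fit) and FASN, fatty acid synthase, −0.98, while HACD1 and FADS3 had 1.16 and 1.15. ACSL3 itself had −0.04 in the same fits. Of the lipid regulators 4 of 13 rose and 4 fell in the 4-library limma fit, beside 23.8% and 18.7% of all genes, and 0 were called in the 6-library fit. PPARA, a nuclear receptor that drives oxidation genes, had 1.44 (adjusted p = 0.00125 in the 4-library limma fit and 0.0529 in the 6-library fit), SREBF2 −1.16 and PPARG −0.95. HNF4A, a transcription factor of intestinal and liver epithelium, was listed at 0 in all 3 resistant libraries and at 1.95, 1.69 and 1.68 FPKM in parental cells with EHMT2 siRNA, with control siRNA and untransfected.

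Enzymes that act after ACSL4 on phospholipids were also measured. LPCAT3, which inserts arachidonoyl-CoA into phospholipids, stood at 6.11 FPKM after EHMT2 siRNA against 16.3 after control siRNA in resistant cells, and at 5.79 against 14.3 in parental cells. Its estimate was −1.23 (SE 0.13, adjusted p = 0.00135 in the 4-library limma fit and 0.0584 in the 6-library fit). Of the 13 genes of phospholipid remodelling 2 rose and 3 fell in the 4-library limma fit, near the 42.5% of all genes called. In the ferroptosis list 8 of 16 rose and 2 fell in that fit, beside 23.8% and 18.7% of all genes, with a median of 0.24, and 0 of the 16 were called in the 6-library limma fit. TFRC, the transferrin receptor, had 0.85, while GPX4, the peroxidase that reduces lipid peroxides, had −0.68 (adjusted p = 0.00644 in the 4-library limma fit and 0.181 in the 6-library fit). SLC7A11, the cystine carrier, was 20.4, 26.5 and 16.0 FPKM in resistant cells with EHMT2 siRNA, with control siRNA and untransfected, against 7.22, 9.22 and 17.6 in parental cells. SLC7A11 was thus higher in resistant cells with either siRNA, while its untransfected values lay close together (log2 ratio −0.13, resistant over parental). Those 2 untransfected tables summed to 376359 FPKM in resistant and 446165 in parental cells. The sign of so small a ratio was not checked under other scalings.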

How the data were processed

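Total RNA of 6 HCT116 cultures, 1 library per group by the sample titles, was sequenced after TruSeq v2 preparation, per the labels' protocols. The authors deposited FPKM values, in a separate table for each library. Per the submitters' processing notes, StringTie 2.1.1, HISAT2 2.2.1, cutadapt 4.9 and FastQC 0.12.1 were used with build GRCh38. The sources used here do not give annotation release, strand setting or read numbers.

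Tables of 19957 rows were joined by gene ID, and for repeated symbols the row of highest mean was kept (19942 symbols). Ratios are log2 of FPKM with 1 added, over genes that reached 1 FPKM in either library of a pair. An additive model of line and treatment was fitted by limma (version 3.58.1, R 4.3.3, trend option) to the 11521 genes that reached 1 FPKM in 3 or more libraries, with Benjamini-Hochberg adjustment and a threshold of 0.05. It has 2 residual degrees of freedom with 6 libraries and 1 with the 4 siRNA libraries. Values were summarised and plotted with Python.

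The members and gene lists were chosen with earlier results of these data known. Named by rule were the 4 members, ACSL6, EHMT2, the 5 nearest profiles per member and, per list, the 2 highest and 2 lowest tested genes by the EHMT2 siRNA estimate and by the mean line ratio, as well as genes that pass the test. Of these genes a part is described. Genomic neighbours, promoter motifs, marker genes and SLC7A11 beside ACSL4 were chosen for display after values were seen. No protein sequence was used here. A gene named by the rule is not reported here.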

Additional observations from a re-analysis of the deposited data

Results flagged for a closer look

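Some members went opposite ways in the lines under the same treatment contrast. With 1 library per group these differences were not tested. With control siRNA over untransfected cells, the log2 ratio of ACSL5 was 1.89 in resistant cells against −1.60 in parental cells, and that of ACSL3 −0.24 against 0.18. With EHMT2 siRNA over control siRNA, ACSL5 had 0.37 in resistant and −0.14 in parental cells, and ACSL3 −0.10 and 0.026. These ACSL3 ratios were −0.17 and −0.07 with median centring, and −0.16 and −0.02 with quantile normalisation, so their signs were then the same. The parental ACSL5 ratio was −0.02 after rescaling to the same sum. The share of all genes with opposite signs was not counted, so nothing is read from the signs. The 2 contrasts share the control siRNA libraries.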

How the results depend on the processing

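No paired analysis was possible because the groups share only 1 replicate number, and line was instead a term of the limma fits. Of 112 log2 ratios recomputed with a pseudocount of 0.1, rescaling to the same sum, median centring or quantile normalisation, 111 moved by less than 0.25, and 4, for ACSL1, ACSL3 and ACSL4, changed sign. The exception is ACSL5, resistant over parental in untransfected cells, at −4.45 with a pseudocount of 0.1. At 1.5-fold, the members apart were 2 for EHMT2 siRNA in resistant cells, and 1 with EHMT2 siRNA and 3 with control siRNA for resistant over parental. At 4-fold, they were 1 for the untransfected line pair and 0 for control siRNA over untransfected in either line, all on FPKM with 1 added. In plain FPKM, ACSL5 in resistant cells was 4.46-fold higher with control siRNA. The share of all genes apart at 1.5-fold or 4-fold was not counted, so nothing is read from these counts.

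Rescaling to the same sum turned the limma estimates of ACSL3 to 0.051 for EHMT2 siRNA and 0.035 for control siRNA. The count of genes called for EHMT2 siRNA was 4902 with the 4 siRNA libraries and 263 with a filter of 5 FPKM, and for control siRNA 3 with a pseudocount of 0.1. ACSL1 does not pass the filter of 5 FPKM. Without each library in turn, the EHMT2 siRNA estimate ranged from 0.23 to 0.69 for ACSL1, −0.21 to 0.13 for ACSL3, −0.74 to 0.014 for ACSL4 and −1.01 to 1.246 for ACSL5. The control siRNA estimate ranged from 0.05 to 0.32 for ACSL1, −0.28 to 0.21 for ACSL3, 0.25 to 1.03 for ACSL4 and −1.73 to 2.02 for ACSL5. The highest ACSL4 estimate for control siRNA, 1.03, came without the untransfected parental library. That fit has 1 untransfected library left, with its spread taken from the siRNA libraries. Genes called ranged from 0 to 4904 for EHMT2 siRNA and from 3 to 2059 for control siRNA, and the highest counts came without an untransfected library. Depth is unknown and limits every value.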

Other observations

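Further lipid genes near the ACSL step were measured. Of 6 tested acyl-CoA thioesterase genes, whose products undo the ACSL reaction, 2 rose and 2 fell with EHMT2 siRNA in the 4-library limma fit, in which 42.5% of all genes were called, 23.8% higher and 18.7% lower. The 6-library fit called 0 of the 6. ACOT8, a peroxisomal thioesterase, was 15.5 FPKM with EHMT2 siRNA and 7.01 with control siRNA in resistant cells, and 12.1 and 5.06 in parental cells (estimate 1.08, SE 0.13, adjusted p = 0.00182 in the 4-library limma fit and 0.0672 in the 6-library fit). Of 14 glycerolipid synthesis genes 3 rose and 4 fell, beside the same shares of all genes, among them GPAT3, an acyltransferase that uses acyl-CoA (0.84), and DGAT2, which makes triglyceride (−0.76). Of 11 lipid droplet and lipolysis genes 3 rose and 1 fell, 4 called in all and near the 42.5% of all genes, among them MGLL, monoacylglycerol lipase (0.73), and LIPE, hormone-sensitive lipase (−0.62). In these lists too, 0 genes were called in the 6-library limma fit, in which 3060 of all genes had an unadjusted p under 0.05 for EHMT2 siRNA.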
